A study of Mus musculus with 6 samples.

Results

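Transcripts of 8 receptor genes of the interleukin-1 (IL-1) family were measured by RNA sequencing in neutrophils that had been sorted from mouse corneas. The corneas had been infected 24 h before collection with Pseudomonas aeruginosa PAO1, a bacterial laboratory strain that causes keratitis. There were 3 libraries from IL1a -/- mice, which lack the gene of the cytokine IL-1 alpha, and 3 from wild-type (WT) mice, and all 6 came from infected eyes. Strain, age, sex and whether animals were pooled are not given in the labels used here, and the 3 libraries of a genotype are labelled as biological replicates. The receptors were chosen by name, as the signalling, accessory, decoy and inhibitory receptors of the family: Il1r1, Il1r2, Il1rap, Il1rl1, Il1rl2, Il18r1, Il18rap and Sigirr, 8 of the 54838 genes in the count tables.

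IL-1 alpha and IL-1 beta signal when IL1R1 binds them and recruits the accessory chain IL1RAP, which brings the intracellular TIR domains of both chains together and engages the adaptor MyD88. IL1R2 binds the same ligands but lacks a TIR domain, so it acts as a decoy, on the cell surface or shed from it. The receptors of IL-33 (IL1RL1, also called ST2) and IL-36 (IL1RL2) share IL1RAP, the IL-18 receptor pairs IL18R1 with its own accessory chain IL18RAP, and SIGIRR dampens signalling by the family. In the cornea, IL-1 released during bacterial keratitis acts on epithelial and stromal cells and helps to recruit neutrophils. The comparison of decoy with signalling receptor transcripts asks whether these neutrophils carry the parts needed to respond to IL-1.

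The libraries held 22855676 to 33626008 gene counts. Il1a (ENSMUSG00000027399) was at 2.89, 5.37 and 5.15 CPM (counts per 1e6 counts of the TMM-scaled library) in the knockout libraries, against 5116, 6195 and 8776 CPM in the WT libraries, in keeping with the genotype label of each library. The neutrophil marker S100a9 was at 13296 ± 897 CPM in the knockout and 14129 ± 1390 CPM in WT (SD, n = 3 each). Summed over 10 markers each, neutrophil genes came to 27020 to 29936 CPM in the knockout and 28303 to 33539 CPM in WT, and monocyte and macrophage genes to 635 to 660 CPM in the knockout and 532 to 586 CPM in WT. The monocyte and macrophage sums did not overlap between genotypes, as was so for 11.6% of single tested genes. Of those 10 markers 0 were called. Their log2 fold changes were all above 0, from 0.17 for Cd68, the marker with the highest CPM, to 2.71 for Mrc1. C1qa, C1qb, C1qc, Mrc1, Ccr2 and Ms4a7 had an unadjusted p under 0.05 (edgeR), against 5.99% of all tested genes. C1qb was at 4.81 ± 3.17 CPM in the knockout and 0.989 ± 0.258 CPM in WT (SD, n = 3 each). The part of these cells in any receptor level was not tested. Corneal epithelial markers summed to 25.7 to 111.6 CPM in the knockout and 19.4 to 138.0 CPM in WT, B cell markers to 0.262 to 0.493 CPM in the knockout and 0 to 0.161 CPM in WT, and erythroid and platelet markers to 7.32 to 51.0 CPM in the knockout and 7.90 to 34.5 CPM in WT. The B cell sums, and the dendritic cell sums and the T cell and NK cell sums given below, did not overlap between genotypes either. In a principal component analysis knockout replicate 2 was the most distant library (67.3 on the first component, where the other 5 spanned -32.9 to 2.1). Between genotypes, 12 of 11924 tested genes passed edgeR's quasi-likelihood test at an adjusted p under 0.05.

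Il1r2, the decoy receptor, had the highest mean level of the 8 receptors in both genotypes and stood at rank 88 by mean CPM among the 11924 tested genes. The accessory chain Il1rap stood at rank 114, and the signalling receptor Il1r1 at rank 9279. In WT replicate 3 alone Il1rap was above Il1r2 in CPM, at 1519 against 1499. No receptor was called as different between the genotypes. These ranks use CPM without regard to gene length, and levels per length follow.

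Il1r2 (ENSMUSG00000026073, GRCm38 chromosome 1, 40074079 to 40125231, plus strand) was at 1997, 1467 and 1520 CPM in the knockout libraries, against 1917, 1761 and 1499 CPM in the WT libraries. These values rest on 34806 to 63536 counts per library. The 2 genotypes overlapped, with replicate 1 the highest library of each. The log2 fold change of knockout over WT was -0.05, with a 95% interval from -0.38 to 0.27 (edgeR quasi-likelihood test, adjusted p = 0.99). In the annotation its 1 complete coding transcript has 410 codons, against 576 in the longest of Il1r1.

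Il1r1 (ENSMUSG00000026072, chromosome 1, 40225080 to 40317257, plus strand) was near the limit of detection. The knockout libraries held 13, 42 and 5 counts, against 39, 44 and 22 counts in the WT libraries. In CPM this was 0.409, 1.30 and 0.218 in the knockout and 1.46, 1.42 and 0.708 in WT. Knockout replicate 2 lay among the WT values, and the other 2 knockout libraries lay below all 3 WT libraries. The log2 fold change was -0.87 with a wide 95% interval, from -2.36 to 0.61 (edgeR adjusted p = 0.94), and without knockout replicate 2 it was -1.90. Reads were not tagged by molecule, so counts do not equal molecules.

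Stromal cells and endothelium are known to express Il1r1, and markers of both were present at low level. The summed level of 8 corneal stroma and fibroblast markers was 13.0, 44.1 and 20.6 CPM in knockout replicates 1, 2 and 3, against 19.5, 21.6 and 37.6 CPM in WT replicates 1, 2 and 3. Among knockout libraries the one with the most stromal signal also had the most Il1r1, while among WT libraries the one with the most had the least. Of these 8 markers, 8 had counts, led by Dcn at 8.64 ± 3.71 CPM in the knockout and 11.7 ± 4.7 CPM in WT (SD, n = 3 each), and Pdgfra was below 1 CPM in every library. The 6 endothelial markers summed to 33.3 to 44.9 CPM in the knockout and 38.8 to 43.5 CPM in WT, most of it Pecam1, which neutrophils also express. Emcn was at 0.614 ± 0.572 CPM in the knockout and 1.05 ± 1.31 CPM in WT (SD, n = 3 each). Vwf was at 1.17 ± 0.55 CPM in the knockout and 0.159 ± 0.147 CPM in WT, and neither was called. Both averaged near the level of Il1r1. Corneal epithelial cells, on which IL-1 also acts, had 8 markers summing to 25.7, 111.6 and 33.2 CPM in knockout replicates 1, 2 and 3. In WT replicates 1, 2 and 3 these summed to 19.4, 138.0 and 94.1 CPM. The part of stromal, endothelial and epithelial cells in the Il1r1 counts was not tested. In such sorted bulk samples, fewer cells of a type and less RNA per cell cannot be told apart.

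To compare different genes, counts were divided by the exonic length of each gene. Within each library, Il1r2 exceeded Il1r1 per kilobase of exon by 15695-, 3732- and 21105-fold in knockout replicates 1, 2 and 3, against 4325-, 4100- and 6907-fold in WT replicates 1, 2 and 3. On the log2 scale the ratio was 12.83 ± 1.07 (SD, n = 6 libraries) and above 0 in 6 of 6. An exact two-sided permutation test that exchanges the genes within a library gave p = 0.031, the smallest that 6 libraries allow. With Il1r2 above Il1r1 in all 6, the test could give no other value, so it adds nothing to the ratios. Expressed as a share, Il1r1 made up 0.00474% to 0.0268% of the summed per-length level of the 2 IL-1-binding receptors.

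The genotypes overlapped in this ratio. It averaged 13.39 ± 1.34 in the knockout and 12.28 ± 0.41 in WT on the log2 scale (SD, n = 3 each). The difference of 1.11 had an exact two-sided permutation p of 0.4, where 3 libraries against 3 cannot give less than 0.1. Over the 6 libraries Il1r2 spanned 1467 to 1997 CPM and Il1r1 0.218 to 1.46 CPM.

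**Figure D1:**
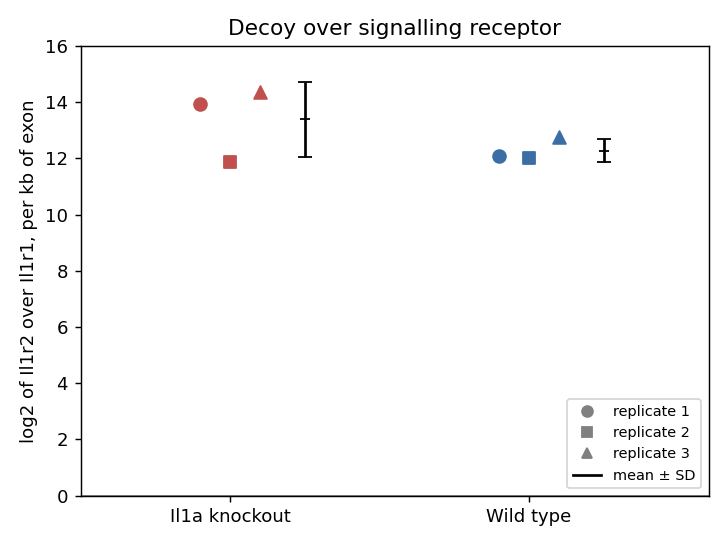
Log2 ratio of Il1r2 over Il1r1 per kilobase of exon in each library (points) for Il1a knockout and wild type, with the mean and SD beside them. All 6 libraries lie between 11.87 and 14.37, and knockout replicate 2 is the lowest of them.

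Il1rap (ENSMUSG00000022514, chromosome 16, 26581704 to 26730117, plus strand), the accessory chain that the IL-1, IL-33 and IL-36 receptors share, was at 1226, 1209 and 1085 CPM in the knockout libraries, against 1142, 1382 and 1519 CPM in the WT libraries. WT replicate 1 lay within the knockout values and the other 2 WT libraries above them. The log2 fold change was -0.20, with a 95% interval from -0.48 to 0.08 (edgeR adjusted p = 0.92). Il1rap has several annotated forms with complete coding sequences of 360 to 685 codons, and IL1RAP is known to exist as a membrane and as a soluble protein. A gene-level count does not separate them. Of its exonic bases, 4.86% overlap the antisense gene Gm20319, and the sum of the strand columns, which keeps reads there, came to 114.9% of the unstranded count.

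The decoy also outnumbered the accessory chain per length. Il1r2 over Il1rap was 9.70, 7.22 and 8.34 per kilobase of exon in knockout replicates 1, 2 and 3, against 10.0, 7.59 and 5.88 in WT replicates 1, 2 and 3. All annotated exons of Il1rap add up to 11.36 kb, while its longest transcript has 4520 bases. With the longest transcript of each gene as its length, the mean log2 ratio was 2.10 in place of 3.00. By either length Il1rap stood far above Il1r1, at 433- to 2531-fold per kilobase of exon over the 6 libraries.

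**Figure D2:**
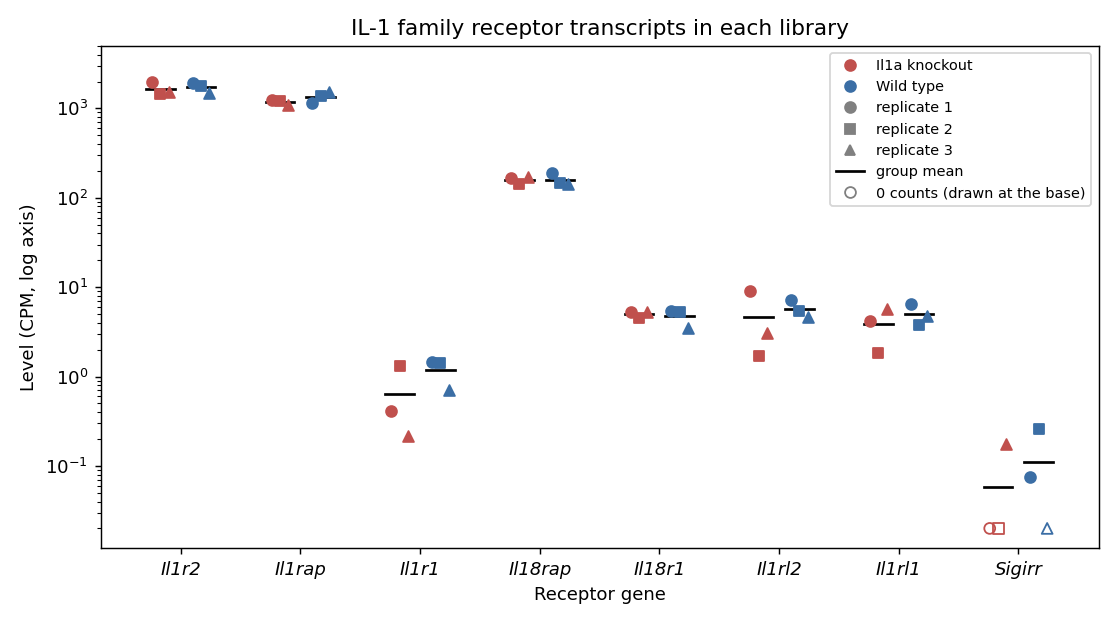
Level of each receptor gene in every library, in CPM on a log axis, with Il1a knockout left of wild type, replicates by symbol and group means as bars; open symbols mark 0 counts. Il1r2 and Il1rap lie above 1000 CPM in all 6 libraries, Il1r1 lies at or below 1.46 CPM, and the genotypes overlap for every gene.

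The 2 chains of the IL-18 receptor were unequal. Il18rap (ENSMUSG00000026068, chromosome 1, 40515362 to 40551705, plus strand), the accessory chain needed for high-affinity binding and signalling, was at 166.9, 141.1 and 170.2 CPM in the knockout libraries, against 190.9, 145.8 and 141.3 CPM in the WT libraries. The binding chain Il18r1 (ENSMUSG00000026070, 40465552 to 40500854) was at 5.28, 4.47 and 5.33 CPM in the knockout, against 5.39, 5.34 and 3.51 CPM in WT. Within libraries Il18rap exceeded Il18r1 19.4- to 28.6-fold per kilobase of exon, in 6 of 6 libraries. Neither was called between genotypes: the log2 fold change was 0.00075 for Il18rap (95% interval -0.32 to 0.32) and 0.08 for Il18r1 (-0.50 to 0.66), with edgeR adjusted p of 1.0 and 0.99.

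T cells and NK cells are known for both IL-18 receptor chains. Of the 9 markers of those cells, Cd3e, Nkg7, Ncr1, Klrb1c and Gzma had 0 counts in all 6 libraries. The summed level of the 9 markers was 0.692 to 1.40 CPM in the knockout and 1.54 to 1.68 CPM in WT. Il18rap averaged 159.4 CPM in the knockout and 159.3 CPM in WT, and Il18r1 5.03 and 4.75 CPM. The part of T cells and NK cells in either level was not tested. The marker with the highest CPM, Cd3d, was at 0.626 ± 0.134 CPM in the knockout and 1.22 ± 0.17 CPM in WT (SD, n = 3 each).

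Il1rl2 (ENSMUSG00000070942, chromosome 1, 40324610 to 40367562, plus strand), the IL-36 receptor, was at 8.99, 1.70 and 3.10 CPM in the knockout libraries, against 7.26, 5.44 and 4.60 CPM in the WT libraries. Knockout replicate 1 was the highest of all 6 libraries and the other 2 knockout libraries were the lowest. The log2 fold change of -0.32 (95% interval -1.45 to 0.81, edgeR adjusted p = 0.97) was -1.28 without knockout replicate 1 and 0.07 without knockout replicate 2, and the gene was not called in either case. Dendritic cells are known to express Il1rl2, and their 7 markers summed to 4.68, 8.97 and 10.7 CPM in knockout replicates 1, 2 and 3, against 3.82, 4.31 and 4.34 CPM in WT replicates 1, 2 and 3. Members of this list did not move together. Clec9a averaged 1.32 CPM in the knockout and 0.707 CPM in WT, and Xcr1 0.668 and 0.961 CPM, each with overlapping genotypes. Ccr7 was at 1.57, 6.54 and 7.42 CPM in the knockout libraries, against 1.24, 0.451 and 1.48 CPM in the WT libraries, and Zbtb46 at 0.472, 0 and 0.0873 CPM in the knockout libraries, against 0.674, 0.998 and 1.09 CPM in the WT libraries. Their part in the Il1rl2 level was not tested.

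Il1rl1 (ENSMUSG00000026069, chromosome 1, 40429570 to 40465415, plus strand), the IL-33 receptor, was at 4.15, 1.85 and 5.72 CPM in the knockout libraries, against 6.51, 3.73 and 4.70 CPM in the WT libraries. Knockout replicate 2 was the lowest, and the genotypes overlapped (log2 fold change -0.36, 95% interval -1.24 to 0.52, edgeR adjusted p = 0.96). With 1 library left out, the value was -0.02 without knockout replicate 2, -0.73 without knockout replicate 3 and -0.13 without WT replicate 1, and the gene was not called in any of these fits. Its complete annotated coding sequences run from 337 to 567 codons, and the gene is known to make a soluble decoy form of ST2 beside the membrane receptor, which the counts do not separate. Mast cells and type 2 innate lymphoid cells are known for Il1rl1. The mast cell and basophil markers Fcer1a, Ms4a2, Mcpt8 and Cma1, and the lymphoid cytokine genes Il13 and Il5, had 0 counts in all 6 libraries. The growth factor receptor gene Kit, with the highest CPM of the mast cell markers, was at 8.68, 3.92 and 7.12 CPM in the knockout libraries, against 9.88, 10.3 and 8.43 CPM in the WT libraries, and its part in the Il1rl1 level was not tested. The 8 mast cell and basophil markers summed to 3.92 to 9.40 CPM in the knockout and 8.52 to 10.3 CPM in WT, and the 6 markers of type 2 lymphoid cells to 1.67 to 6.81 CPM in the knockout and 1.31 to 4.31 CPM in WT. Of the latter, Areg averaged 2.39 CPM in the knockout and 1.74 CPM in WT, Il7r 1.61 and 0.316 CPM, and Rora 0.663 and 0.422 CPM. The part of mast cells, basophils and type 2 lymphoid cells in the Il1rl1 level was not tested.

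Sigirr (ENSMUSG00000025494, chromosome 7, 141091175 to 141100572, minus strand), the inhibitory receptor, was hardly detected. It had 0, 0 and 4 counts in the knockout libraries, against 2, 8 and 0 counts in the WT libraries, and was the only one of the 8 that did not pass the expression filter. Where it had 0 counts, the depth allows a level of up to 0.0925 to 0.0965 CPM (3 counts of the library).

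Of the 8 receptors, 7 passed the filter and 0 of these were called by edgeR or by DESeq2, where 0.101% of all tested genes were called by edgeR. At an unadjusted p under 0.05 there were 0 of 7, against 5.99% of all tested genes, and the smallest unadjusted p was 0.14, for Il1rap. The knockout and WT libraries did not overlap for 0 of the 7, against 11.6% of all tested genes. Each of these shares amounts to less than 1 gene in 7. The 7 fitted log2 fold changes had a median of -0.20, with 5 below and 2 above 0, where the median over all tested genes was 0.0045. The intervals of Il1r2, Il1rap and Il18rap were narrow enough to leave out a change of 0.50 or more on the log2 scale, while those of Il18r1, Il1r1, Il1rl1 and Il1rl2 were not.

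**Figure D3:**
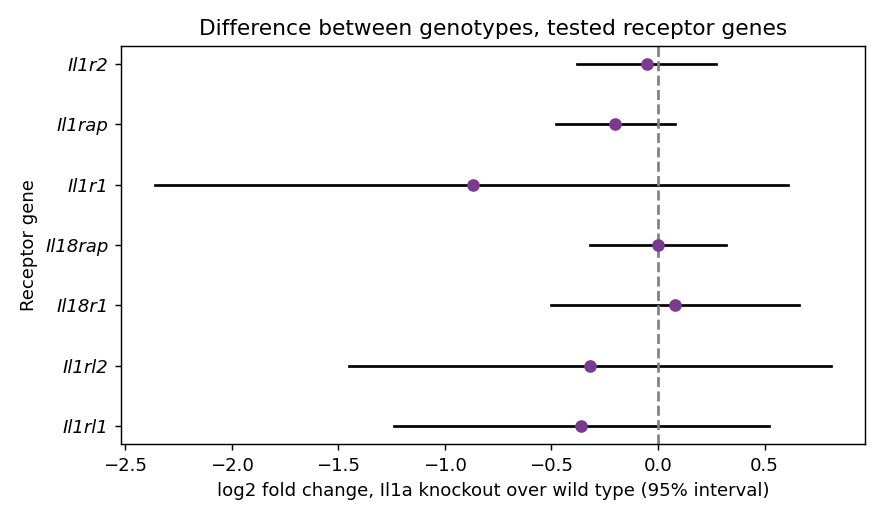
Log2 fold change of Il1a knockout over wild type (points) with 95% intervals (lines) for the 7 receptor genes that were tested. All 7 intervals include 0, and the widest is that of Il1r1, from -2.36 to 0.61.

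Ordered by level per kilobase of exon over the 6 libraries, Il1r2 came first at 887.6 CPM per kilobase (range 768.7 to 1047), then Il1rap at 111.0 (95.5 to 133.7) and Il18rap at 23.6 (20.9 to 28.3). These 3 ranges did not overlap, and the order held in 6 of 6 libraries. Il18r1 at 1.01, Il1rl2 at 0.761 and Il1rl1 at 0.645 CPM per kilobase overlapped each other, and the longest-transcript length put Il1rl2, at 1.33, above Il18r1, at 1.18. Il1r1 followed at 0.144 (0.0343 to 0.229), below Il1rl1 in 6 of 6 libraries, and Sigirr at 0.0278 CPM per kilobase was below Il1r1 in 5 of 6 libraries, with overlapping ranges. The spans are each from the lowest to the highest library and mix both genotypes.

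Of the receptor genes, 6 are neighbours. Il1r2, Il1r1, Il1rl2, Il1rl1, Il18r1 and Il18rap lie in that order on the plus strand of chromosome 1 within 477.6 kb, with 0 other protein-coding genes between them. The most and the least abundant of these 6 sit next to each other, 99.8 kb apart. Il18r1 and Il18rap are likewise adjacent. Beyond Il1r2 lies Map4k4, a kinase gene, at 13.3 CPM per kilobase, and beyond Il18rap the sodium-proton exchanger genes Slc9a4 and Slc9a2, at 0.00273 and 0 CPM per kilobase, and Mfsd9, a transporter family gene, at 0.0373.

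**Figure D4:**
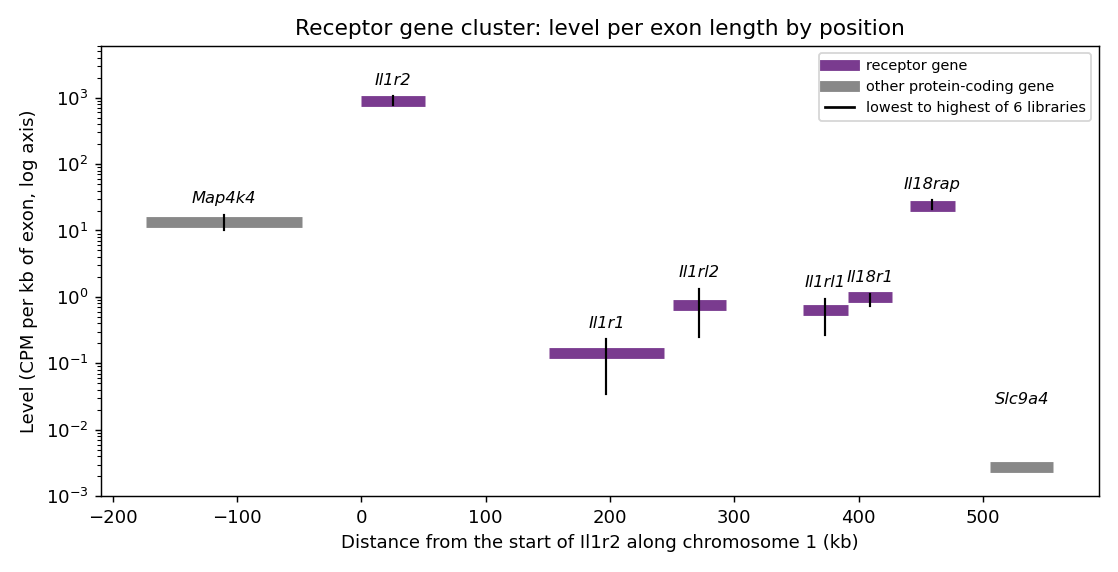
Mean level over 6 libraries, in CPM per kilobase of exon on a log axis, against distance from the start of Il1r2 in kb, for the receptor genes of the cluster and 2 protein-coding neighbours; thin lines run from the lowest to the highest library. Il1r2 at 887.6 and Il1r1 at 0.144 CPM per kilobase are immediate neighbours.

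The start regions of Il1r2 and Il1r1 are shown as the neighbours with the highest and the lowest level in the cluster, and those of Il1rap and Il18rap as the next most abundant receptors. They are RefSeq windows on GRCm38.p6, each of 300 bases, from 250 before to 50 after an annotated start, read on the coding strand. The table held 11 windows for 7 of the 8 genes. Capitals mark matches, on either strand, to 4 motifs of myeloid and inflammatory transcription factors: GAGGAA (the core bound by PU.1), TTGCNNAA (C/EBP), GGGNNNNNCC (a loose form of the NF-kB site) and TGANTCA (AP-1), where N is any base. The motifs were picked after the receptor levels were known, and AP-1 was added after the matches of the others had been seen. Of all 32851 windows in the table, 28.3% hold a PU.1 core, 10.8% a C/EBP, 50.8% an NF-kB and 7.81% an AP-1 match.
Il1r2, chr1:40085843-40086142, plus strand: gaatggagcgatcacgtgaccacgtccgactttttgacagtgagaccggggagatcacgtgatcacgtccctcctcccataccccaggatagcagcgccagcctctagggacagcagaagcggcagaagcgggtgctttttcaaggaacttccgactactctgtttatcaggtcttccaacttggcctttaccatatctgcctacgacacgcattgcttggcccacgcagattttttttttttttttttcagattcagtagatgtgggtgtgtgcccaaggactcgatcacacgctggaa
Il1r1, upstream start, chr1:40224830-40225129, plus strand: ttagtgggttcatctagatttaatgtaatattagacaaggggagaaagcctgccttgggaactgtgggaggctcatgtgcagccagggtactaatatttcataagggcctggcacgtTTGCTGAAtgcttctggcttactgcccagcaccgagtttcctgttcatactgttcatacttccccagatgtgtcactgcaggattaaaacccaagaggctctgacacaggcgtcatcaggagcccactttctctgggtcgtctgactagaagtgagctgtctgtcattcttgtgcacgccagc
Il1r1, downstream start, chr1:40266336-40266635, plus strand: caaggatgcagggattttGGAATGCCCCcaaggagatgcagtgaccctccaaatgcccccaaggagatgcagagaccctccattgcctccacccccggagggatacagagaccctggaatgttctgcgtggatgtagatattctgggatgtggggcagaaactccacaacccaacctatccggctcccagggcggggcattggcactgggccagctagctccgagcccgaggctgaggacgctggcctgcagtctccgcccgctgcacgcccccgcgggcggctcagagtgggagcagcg
Il1rap, chr16:26581455-26581754, plus strand: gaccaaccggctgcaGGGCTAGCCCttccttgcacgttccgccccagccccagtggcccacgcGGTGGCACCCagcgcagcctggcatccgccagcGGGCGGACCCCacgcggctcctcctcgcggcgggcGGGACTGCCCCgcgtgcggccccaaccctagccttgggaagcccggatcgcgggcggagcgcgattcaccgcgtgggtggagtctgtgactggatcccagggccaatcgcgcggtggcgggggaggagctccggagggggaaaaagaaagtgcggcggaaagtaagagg
Il18rap, chr1:40515112-40515411, plus strand: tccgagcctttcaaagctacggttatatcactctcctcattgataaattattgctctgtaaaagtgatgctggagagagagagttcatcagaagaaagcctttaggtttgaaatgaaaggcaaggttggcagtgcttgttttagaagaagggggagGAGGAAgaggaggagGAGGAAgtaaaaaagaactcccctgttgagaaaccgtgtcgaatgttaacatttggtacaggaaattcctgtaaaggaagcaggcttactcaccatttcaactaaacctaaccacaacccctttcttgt

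The Il1r2 window held 0 matches to the 4 motifs, which says only that these letters are not in it; GENCODE places other starts of Il1r2 upstream of this one. The windows of Il1r1 held 1 C/EBP match at the upstream start and 1 NF-kB match at the downstream start. The Il1rap window, with 72.0% G and C, held 6 NF-kB matches, some of which overlap. Il18rap had 2 PU.1 core matches inside a run of purines. Over the 11 windows, 3 held a PU.1 core, 3 a C/EBP, 3 an NF-kB and 0 an AP-1 match. A match in a window is a description of the sequence and was not tested for binding.

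Of the ligands, Il1b, Il1rn and Il36g had high levels in both genotypes. The ligand and antagonist list has 11 genes, of which 9 were tested and 1, Il1a itself, was called, lower in the knockout. Il1b, which encodes IL-1 beta, had 17562, 22197 and 20893 CPM in the knockout libraries, against 23803, 21960 and 21331 CPM in the WT libraries. Il1rn, which encodes the receptor antagonist that occupies IL1R1, was at 18029, 19444 and 18525 CPM in the knockout, against 17745, 21053 and 22710 CPM in WT. Per kilobase of exon, Il1b averaged 10602 and Il1rn 3372 CPM in the knockout, against 11728 and 3704 CPM in WT. Il1r2, at 870.7 CPM per kilobase in the knockout and 904.5 in WT, lay below both and Il1r1 far below all 3.

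Among the other ligands, Il36g, the gene of IL-36 gamma, was at 1521, 1290 and 1545 CPM in the knockout libraries, against 1259, 1470 and 1478 CPM in the WT libraries, while its receptor Il1rl2 stayed below 9 CPM. The log2 fold change of Il36g was 0.05 (95% interval -0.21 to 0.31, edgeR adjusted p = 0.99). Il36a, the gene of IL-36 alpha, was at 13.3 to 21.3 CPM in the knockout and 12.6 to 27.2 CPM in WT. Il18 was at 11.8 ± 1.8 CPM in the knockout and 14.9 ± 4.4 CPM in WT (SD, n = 3 each), and its soluble antagonist Il18bp was at 6.11 to 12.4 CPM in the knockout and 7.27 to 12.1 CPM in WT. Il33, whose receptor is Il1rl1, was at 0.175 to 3.02 CPM in the knockout and 0 to 2.99 CPM in WT.

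The machinery that carries the signal from these receptors was present in both genotypes. Of 19 adaptor and kinase genes, 18 were tested and 0 were called (1 had an unadjusted p under 0.05), with a median log2 fold change of -0.06. Irak2, a receptor-associated kinase with the highest CPM of the list, was at 951.1 ± 51.5 CPM in the knockout and 965.8 ± 146.9 CPM in WT (SD, n = 3 each). Map3k8, a kinase upstream of ERK, was at 284.9 ± 32.9 CPM in the knockout and 292.4 ± 41.8 CPM in WT. Myd88, the shared adaptor, was at 240.1 ± 28.2 CPM in the knockout and 262.6 ± 16.7 CPM in WT. Tollip, an adaptor that restrains the pathway, was at 147.1 ± 13.1 CPM in the knockout and 152.3 ± 36.4 CPM in WT. MyD88 and the IRAK kinases also serve Toll-like receptors, and of those Tlr2 was at 1211 ± 165 CPM in the knockout and 1177 ± 44 CPM in WT and Tlr4 at 413.7 ± 18.7 CPM in the knockout and 431.8 ± 28.6 CPM in WT. Tlr5 was at 2.85 ± 1.13 CPM in the knockout and 2.45 ± 2.54 CPM in WT, and Tlr9 at 0.531 ± 0.521 CPM in the knockout and 0.364 ± 0.305 CPM in WT. Of 6 further receptors of the superfamily, these 4 were tested, 0 were called and 0 had an unadjusted p under 0.05.

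Inhibitors of the pathway were likewise present. All 13 were tested, 0 were called and 0 had an unadjusted p under 0.05, with a median log2 fold change of -0.08. Nfkbia, which encodes the NF-kB inhibitor IkB alpha, was at 7723, 7748 and 8072 CPM in the knockout libraries, against 8682, 8901 and 8901 CPM in the WT libraries. Here the genotypes did not overlap, as for 5.48% of all tested genes in that direction, but the log2 fold change of -0.17 did not pass (95% interval -0.38 to 0.04, edgeR adjusted p = 0.90). Dusp1, a phosphatase gene, was at 6175 ± 511, Tnfaip3, the gene of the deubiquitinase A20, at 4795 ± 461, and Nfkbiz, a nuclear NF-kB regulator, at 3886 ± 295 CPM in the knockout. The WT values were 6625 ± 81, 4768 ± 716 and 4191 ± 372 CPM (SD, n = 3 each).

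Of 12 proteases known to process IL-1 ligands or receptors, 6 were tested and 0 were called or had an unadjusted p under 0.05. Adam17, a sheddase that can release IL1R2, was at 166.2, 133.9 and 145.4 CPM in the knockout libraries, against 127.6, 134.4 and 137.8 CPM in the WT libraries, with a log2 fold change of 0.16 (95% interval -0.11 to 0.42, edgeR adjusted p = 0.94). Adam10, a related sheddase, was at 33.6 ± 7.3 CPM in the knockout and 32.5 ± 2.6 CPM in WT. Casp1, the protease that matures IL-1 beta and IL-18, was at 26.3 ± 3.1 and Capn1, a calpain gene, at 13.6 ± 5.5 CPM in the knockout, against 24.4 ± 2.3 and 18.8 ± 6.5 CPM in WT (SD, n = 3 each). The granule protease genes Elane, Prtn3 and Ctsg were not tested, at no more than 2.86 CPM in any library.

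**Figure D5:**
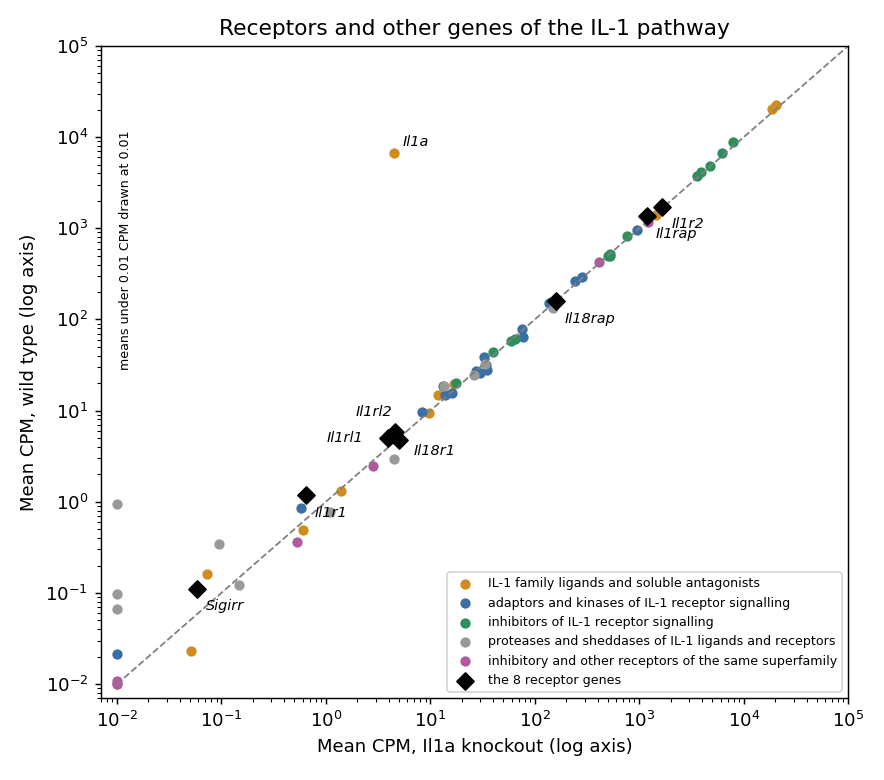
Mean CPM in Il1a knockout (x) against wild type (y), both on log axes, for the 8 receptor genes (diamonds) and the genes of 5 IL-1 pathway lists (circles); the dashed line marks equal levels and means under 0.01 CPM are drawn at 0.01. Il1a lies far above the line, at 4.47 CPM in the knockout and 6696 CPM in wild type, and the tested receptors lie near it.

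Across the 6 libraries Il1r2 had a root mean square deviation of 0.178 from its own mean log2 CPM. The genes with the most similar centred log2 CPM profile, among 5662 other genes averaging 5 CPM or more, were Cdc26, a subunit of the anaphase-promoting complex, Ugt1a7c, a glucuronosyltransferase gene, and 5031439G07Rik, at root mean square differences of 0.034, 0.040 and 0.041 (median over all compared genes 0.261). For Il1rap, with a deviation of 0.164, the nearest were the RNA-binding protein gene Hnrnpk and the small GTPase gene Ralb, each at 0.039 (median 0.245). With 6 libraries and 5662 genes compared, such closeness is a description of these profiles.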

How the data were processed

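Neutrophils were sorted from infected corneas, and per the labels' protocols the libraries came from a SMART-seq v4 kit for low input, a full-length cDNA method without strand information. Per the submitters' processing notes, STAR 2.7.8a, Trimmomatic 0.39 and FastQC 0.11.9 were used with builds named GRCm38 and mm10. No annotation release is given in the sources used here. The deposited values are raw whole-number counts per gene in STAR's layout. The unstranded column was used, which leaves out reads in overlapping genes.

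Symbols, positions and lengths came from GENCODE M21, which held 54809 of the 54838 genes and may not be the authors' release. edgeR 4.0.16 (limma 3.58.1, R 4.3.3) kept 11924 genes by its default filter by group, with 99.9% of counts, scaled by TMM and tested knockout against WT by the robust quasi-likelihood test on the whole table, with Benjamini-Hochberg adjustment at 0.05 and 95% intervals. The procedure was tested on simulated counts. Levels between genes are CPM per kilobase of all exonic bases, and ratios within a library used counts plus 0.5. The spread behind each p-value is that between libraries, which may be partly technical. Single values were tested by exact permutation with scipy 1.17.1, and figures drawn with matplotlib 3.10.9.

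The members, 5 pathway lists, 11 marker lists, 4 promoter motifs and tests were chosen with earlier results of these data known. Named were all 8 receptors, Il1a, the 4 most abundant tested and any called genes of each pathway list, the 3 most abundant of each marker list where they bear on a receptor, the 3 nearest profiles of Il1r2 and Il1rap (1 of them is not reported here), and protein-coding genes within 250 kb on chromosome 1; Il18, Il36a, Il18bp, Il33, Zbtb46, Pdgfra, the markers at 0 and the granule proteases were named after their values were seen. The IL-36 genes were matched by older symbols. The alternatives tried were RLE scaling, library size alone, other filters, DESeq2 1.42.0, a replicate block, the strand columns, another gene length or pseudocount, and each library left out.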

Additional observations from a re-analysis of the deposited data

How the results depend on the processing

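No receptor was called under any of the 13 other settings run (lowest adjusted p 0.35, for Il1rl2 without knockout replicate 1). Of 89 receptor values under these settings, 77 kept the sign of the log2 fold change and 12 did not. Il18rap, near 0 throughout, turned to -0.002 with RLE scaling, -0.006 without a filter and -0.002 in DESeq2. With 1 library left out, the log2 fold change ranged from -0.22 to 0.02 for Il1r2, from -1.28 to 0.07 for Il1rl2, from -0.10 to 0.18 for Il18r1, from -0.08 to 0.14 for Il18rap, from -0.32 to -0.11 for Il1rap, from -0.73 to -0.02 for Il1rl1 and from -1.90 to -0.49 for Il1r1. The filter at 5 CPM in at least 3 libraries removed Il1r1, Il1rl1 and Sigirr, so it gave no value for them.

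The count of called genes over the whole table was 12. It was 185 without a filter, 21 with the 5 CPM filter, 69 in DESeq2 and 20 with the replicate block, and 7 to 24 with 1 library left out: 7 without WT replicate 1, 7 without WT replicate 2, 8 without knockout replicate 3 and 24 without knockout replicate 1. Fewer genes or samples enter some of these fits, and otherwise the cause was not tested. Same-numbered libraries had correlations of 0.14, 0.057 and 0.003 between their deviations from the group means, and knockout replicate 2 was closest to WT replicate 3, so the numbers were not taken to pair the samples.

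The log2 ratio of Il1r2 over Il1r1 was 12.53 to 13.03 with 1 library left out, where the smallest exact p that 5 libraries allow is 0.062, and 13.13 with the longest transcript as length. Its difference between genotypes was 0.62 to 1.87 with 1 library left out, with exact p of 0.2 to 0.8. Over all 6 libraries Il1r1 rests on 165 counts and Sigirr on 14.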
